A study of Drosophila melanogaster with 12 samples.

Results

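Chromosome 4 of Drosophila melanogaster, also called the dot chromosome, is described here through the 59 of its genes that were expressed in larval body wall. They are the rows on this chromosome with a gene name that occurs once and a mean FPKM of at least 1 over both groups in each of 2 deposited tables. Each row is counted as a gene here, although the rows Mitf and CG41130 now belong to the same gene and CG32021 is annotated as a pseudogene. FPKM scales fragment counts to transcript length and sequencing depth. Of 84 chromosome 4 rows, 7 were left out by name (myoglianin, mav, bt, CG1970, ATPsyn-beta, RpS3A and eIF4G), and 18 missed the minimum (17 in both tables, and dpr7 in 1). Both tables together held 7768 genes that passed the same minimum on any chromosome, out of 13650 rows each. A row of another chromosome that names several genes was counted there as a single gene.

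The 12 libraries came from carcass, the muscle and epidermis left after the gut is dissected away, of late foraging larvae in the last instar, in 4 groups of 3. The smox larvae had the genotype Smox(Smad2)F4/Y, so they were male and had only a mutant copy of Smox, the Smad transcription factor of Activin signaling. They were compared with w1118, the white-eyed wild-type stock (sex not given in the sources used here), and both ate yeast paste on apple juice plates. The baboACT larvae were tub-Gal80ts/+;MhcGal4/baboACT and expressed activated Baboon, the Activin receptor, under the muscle driver MhcGal4. Their reference was tub-Gal80ts/+;MhcGal4/+, so both genotypes carried the driver and the temperature-sensitive Gal4 inhibitor, and both were kept at 30 °C for 12 h on standard food. Activated Baboon was thus driven in muscle for a short time, while the smox allele was present in all tissues throughout development.

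The dot chromosome is the smallest fly autosome, and its genes lie among repeats in chromatin that carries the heterochromatin protein HP1a. Most of them are nevertheless active, and the chromosome-specific protein Pof binds their transcripts and chromatin and is known to raise their output. Among the genes here are regulators of Hedgehog and Wingless signaling, receptors that guide axons, calcium-dependent kinases of synapse and muscle, and proteins that silence messenger RNA.

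The tables give 1 FPKM per gene and group, pooled over the 3 libraries, so no spread between libraries and no read depth is known for a level below. A gene is said to have risen, fallen or been called where the authors' deposited table gives a q under 0.05. Most called chromosome 4 genes (38 of 43 in smox and 43 of 51 in baboACT) had the lowest q in the authors' deposited tables, 0.000152 in smox and 0.000217 in baboACT. For the called genes of the chromosome given with their own values, another q is printed where it differs from these. Nothing in the labels states that the 3 libraries of a group are separate sets of animals, so q may measure technical spread. The tables were made separately and share no samples, so levels are compared within a table. Coordinates come from the tables, whose build is not named, and starts were raised by 1 to count from 1. Smox itself went from 23.9 FPKM in w1118 to 1.40 in smox, and the muscle gene Mlc1 stood between 6080 and 8429 FPKM in all groups. The Baboon gene, babo, rose only from 13.2 to 15.6 FPKM in baboACT (log2 fold change 0.23, with q = 0.00424 in the authors' deposited table). The median log2 fold change of all genes there was 0.080. In smox babo fell from 14.7 to 12.6 FPKM (-0.22, with q = 0.000558 in the authors' deposited table). Of the testis markers, aly and vas were below 0.08 FPKM or listed at 0, while bam stood at 6.36 FPKM in w1118 and at 0.223, 0.539 and 2.64 in smox, MhcGal4 and baboACT. Among 8 muscle markers, 3 rose and 0 fell in smox and 0 rose and 5 fell in baboACT, and 2 and 3 of them, Mhc among both, are listed at 0 in a group, which can be a failed estimate. Of 4 epidermal markers 1 rose and 2 fell in smox and 3 rose in baboACT, and of 4 midgut markers 4 fell in smox and 2 in baboACT. The hemocyte marker Hml rose in smox (log2 fold change 0.43) and fell in baboACT (-0.57), and Pxn fell in both (-0.27 and -0.53). Calls were common, at 58.1% of all genes analysed in smox and 43.8% in baboACT. The part of the marker shifts in the values below was not tested.

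In smox carcass most chromosome 4 genes were less abundant than in w1118, typically at 75.6% of its level, and with activated Baboon most were more abundant than in MhcGal4, typically by 1.43-fold. Of the 59 genes, 40 fell and 3 rose in smox, and 16 were not called. With activated Baboon 47 rose and 4 fell, and 8 were not called. Over all genes analysed, 58.1% were called in smox, 39.8% lower and 18.4% higher, and 43.8% in baboACT, 29.1% higher and 14.7% lower. The same shares of the chromosome 4 genes were 67.8% lower and 5.08% higher in smox, and 79.7% higher and 6.78% lower in baboACT. The median log2 fold change of the 59 genes was -0.40 in smox and 0.52 in baboACT. The median of all genes was -0.14 in smox and 0.080 in baboACT, and relative to it the chromosome 4 medians were -0.26 and 0.44. Under upper-quartile scaling they were -0.27 and 0.33. The labels do not state how many copies of chromosome 4 each of the 4 genotypes carried, so levels are not per gene copy. That general shift matters for direction in smox, where 51 of the 59 genes had lower FPKM and 8 higher, against 44 and 15 once the median of all genes was set to 0. All members were chosen with earlier results of these data known, so these shares and medians describe the genes and are not a test of the chromosome.

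The highest levels were those of CG31997 and CG1674. CG31997, on chromosome 4 from 175335 to 176678, had 1510 FPKM in w1118 and 608 in smox, while MhcGal4 had 449 and baboACT 820 FPKM. CG1674, from 251356 to 266529, stood at 829, 627, 499 and 675 FPKM in the same order. Both fell in smox and rose with activated Baboon, with log2 fold changes of -1.31 and 0.87 for CG31997 and -0.40 and 0.44 for CG1674. The next highest genes in both references were CG33521, Rad23 and CaMKII. CaMKII, the calcium/calmodulin-dependent kinase known for its part in synaptic plasticity, lies from 1056643 to 1074329 and went from 161 to 111 FPKM in smox and from 105 to 152 FPKM with activated Baboon. Both of its changes were close to 0.53 on the log2 scale, downward (-0.53) in smox and upward (0.52) in baboACT.

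Summed FPKM of the 59 genes went from 4821 in w1118 to 3139 in smox, and from 2940 in MhcGal4 to 4289 in baboACT. CG31997 and CG1674 made up much of these sums, and without both the sums were 2482, 1904, 1993 and 2794 FPKM in that order. The typical member was more abundant than the typical gene, with a median of 31.9 FPKM in w1118 against 11.7 for all genes, and 26.5 in MhcGal4 against 12.2. Levels of the 59 genes in the references ranked alike (Spearman rho 0.96 over 59 genes, a description across genes of separately made tables). At the low end stood Syt7, at 0.867 FPKM in w1118, and unc-13, Caps, zfh2, CG11093 and CG32021, all below 4 FPKM in w1118. Just inside the minimum was Syt7, with a mean of 1.01 FPKM in the smox table, and just outside it were dpr7, at 0.947, and CG1732, at 0.994 there and 0.540 in the other table.

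**Figure D1:**
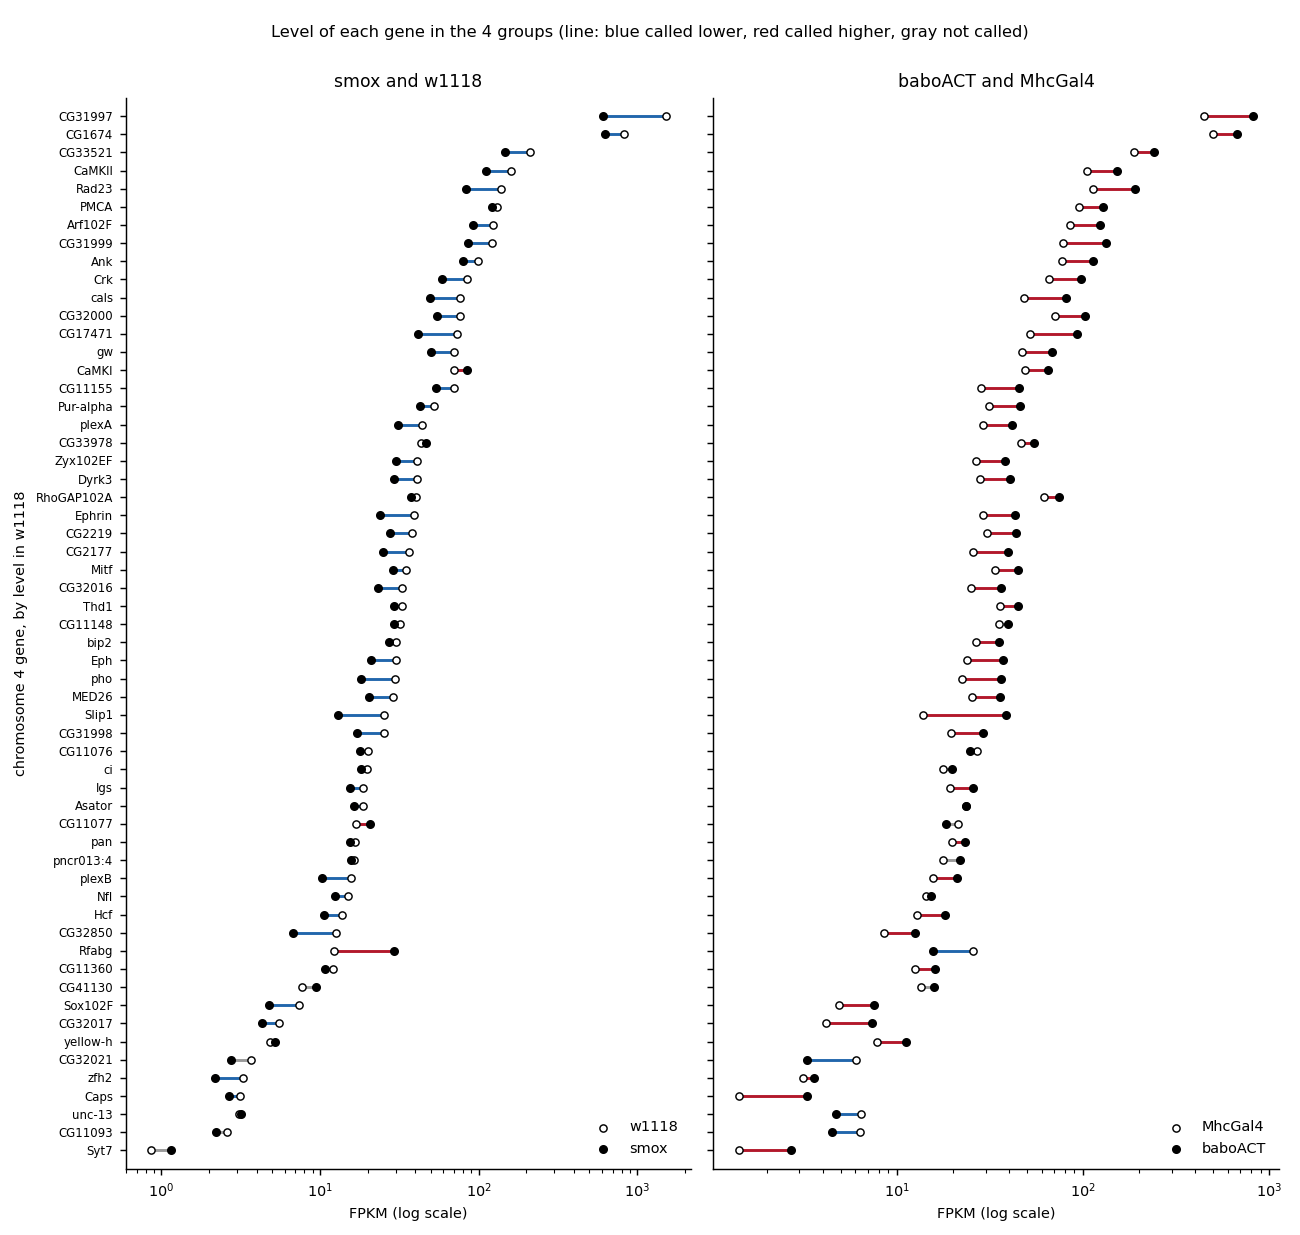
FPKM of 58 of the 59 chromosome 4 genes on a log scale, ordered by the level in w1118, with w1118 and smox on the left and MhcGal4 and baboACT on the right. Open circles are the reference, filled circles the other genotype, and each has 1 deposited value, with no spread; on the left most filled circles lie to the left of the open ones (40 of all 59 called lower), and on the right most lie to the right (47 of all 59 called higher).

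Beside the counts of this and the following role lists stand the shares over all genes analysed. In smox 39.8% of all genes fell and 18.4% rose, and in baboACT 29.1% rose and 14.7% fell. Each list is a part of the 59 genes, of which 67.8% fell in smox and 79.7% rose in baboACT. Of 19 genes listed as transcription factors and cofactors 13 were expressed, and 9 fell and 0 rose in smox, with a median log2 fold change of -0.28. With activated Baboon 10 rose and 1 fell, with a median of 0.41. Both medians were nearer to 0 than those of all 59 genes (-0.40 and 0.52), a difference that was not tested. The Polycomb group gene pho, whose product recruits repressive complexes to DNA, went from 29.7 to 18.1 FPKM in smox and from 22.5 to 36.4 in baboACT, log2 fold changes of -0.71 and 0.69. Sox102F, a Sox family factor, went from 7.41 to 4.76 and from 4.92 to 7.53 FPKM. For both genes the smox level was under the w1118 level by about as much as the baboACT level was over that of MhcGal4.

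Among cofactors of transcription, MED26, a subunit of the Mediator complex, went from 28.8 to 20.4 FPKM in smox and from 25.5 to 36.0 in baboACT. Hcf, a chromatin cofactor, went from 13.8 to 10.6 and from 12.8 to 18.1 FPKM. bip2, which encodes the TFIID subunit Taf3, rose with activated Baboon from 26.6 to 35.3 FPKM, and stood at 30.0 and 27.3 FPKM in w1118 and smox (q = 0.061 in the authors' deposited table). Pur-alpha, a single-stranded nucleic acid binding protein gene, fell from 52.1 to 42.6 FPKM and rose from 31.2 to 45.6.

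Of the nuclear effectors of the Hedgehog and Wingless pathways, ci and pan differed little between genotypes. The Hedgehog effector gene ci stood at 19.9 FPKM in w1118 and 18.1 in smox, and at 17.8 in MhcGal4 and 19.8 in baboACT. It was called in neither experiment (q = 0.0676 and 0.0662 in the authors' deposited table). The Wingless effector gene pan, a TCF factor, was not called in smox (16.6 and 15.4 FPKM, q = 0.118 in the authors' deposited table) and rose with activated Baboon, from 19.9 to 23.1 FPKM (log2 fold change 0.22, with q = 0.014 in the authors' deposited table). lgs, whose product links beta-catenin to its coactivators, fell from 18.8 to 15.4 FPKM in smox and rose from 19.3 to 25.6 in baboACT.

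Among the other factors, Mitf, a regulator of lysosomal genes, fell from 34.8 to 28.7 FPKM and rose from 33.6 to 45.0. A separate row for CG41130, now a synonym of Mitf, has the same locus and was called in neither experiment, so the fragments of both rows cannot be told apart. zfh2, a zinc finger homeodomain factor, fell from 3.27 to 2.19 FPKM in smox and rose by a smaller amount, from 3.13 to 3.60 FPKM, in baboACT (q = 0.0403 in the authors' deposited table). NfI fell from 15.0 to 12.5 FPKM in smox and was not called in baboACT (14.3 and 15.4 FPKM, q = 0.281 in the authors' deposited table). CG11093, now fuss, of the Ski and Sno family of Smad-interacting corepressors, went the other way from the rest in baboACT. It stood at 2.59 and 2.21 FPKM in w1118 and smox (q = 0.19 in the authors' deposited table) and fell with activated Baboon, from 6.34 to 4.51 FPKM (log2 fold change -0.49, with q = 0.000411 in the authors' deposited table). CG11093 shares its locus with another row, so the split of fragments between them is uncertain. The 6 factors listed but not expressed were ey, toy, sv, onecut, fd102C and CG2052, each below 0.5 FPKM in every group.

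Ephrin, Eph, plexA and plexB, which encode a ligand and receptors that guide cells and axons, fell in smox and rose with activated Baboon. Of 12 genes listed as signals, receptors or secreted proteins 8 were expressed, and 6 fell and 1 rose in smox (median log2 fold change -0.50), while 7 rose and 1 fell in baboACT (median 0.55). Ephrin, the membrane-bound ligand, lies from 592383 to 598159 and went from 39.1 to 24.0 FPKM in smox and from 28.9 to 43.4 in baboACT. Eph, its receptor tyrosine kinase, lies from 631312 to 641552 and went from 30.0 to 21.0 and from 23.7 to 37.0 FPKM. The log2 fold changes were -0.70 and 0.58 for the ligand and -0.52 and 0.64 for the receptor.

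The semaphorin receptor genes plexA and plexB lie far apart on the chromosome, and both fell in smox and rose in baboACT. plexA went from 43.8 to 31.1 FPKM in smox and from 29.0 to 41.6 in baboACT, and plexB from 15.6 to 10.3 and from 15.6 to 20.9. cals, the calsyntenin gene, which encodes a cadherin-related membrane protein of synapses, went from 76.6 to 49.4 FPKM and from 48.2 to 80.8, log2 fold changes of -0.63 and 0.75. CG11155, of the ionotropic glutamate receptor family, went from 69.7 to 53.7 and from 28.3 to 45.0 FPKM. yellow-h, of the Yellow family, was not called in smox (4.88 and 5.22 FPKM, q = 0.583 in the authors' deposited table) and rose from 7.81 to 11.2 FPKM in baboACT.

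Rfabg, the gene for the lipid carrier apolipophorin (now apolpp), was the exception in this role. It lies from 1085538 to 1096830 and rose in smox from 12.3 to 29.3 FPKM (log2 fold change 1.25), while it fell with activated Baboon from 25.7 to 15.6 FPKM (-0.72). It was the only one of the 59 genes called higher in smox and lower in baboACT. Rfabg is made in fat body, and 3 of 4 fat body markers also rose in smox and fell in baboACT. Lsp2 went from 190 to 527 FPKM and from 453 to 154, Lsp1beta from 208 to 459 and from 460 to 187, and Lsp1gamma from 235 to 626 and from 298 to 198. Fbp1, the remaining marker, fell in smox from 66.7 to 31.1 and rose in baboACT from 10.4 to 28.8 FPKM. In bulk tissue, less fat body and less RNA per fat body cell cannot be told apart, and the part of tissue amount in the Rfabg values was not tested.

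Of 11 genes listed for synapse, vesicles and membrane transport 9 were expressed, and 6 fell and 0 rose in smox (median log2 fold change -0.41), while 8 rose and 1 fell in baboACT (median 0.53). CG32000, now anne, a P-type ATPase, went from 76.3 to 54.4 FPKM and from 71.1 to 102. The Arf family genes Arf102F and CG2219 (now Arl4) fell in smox by 0.41 and 0.46 on the log2 scale and rose in baboACT by 0.53 and 0.52. The zinc transporter gene CG2177, now Zip102B, went from 36.4 to 25.01 and from 25.7 to 39.7 FPKM. PMCA, the calcium pump of the plasma membrane, rose from 95.1 to 127 FPKM in baboACT and was not called in smox (131 and 121 FPKM, q = 0.104 in the authors' deposited table).

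Among vesicle genes, Caps, now Cadps, which primes dense core vesicles, had the second largest rise with activated Baboon. It went from 1.43 to 3.30 FPKM there (log2 fold change 1.21) and from 3.15 to 2.68 FPKM in smox (-0.23, with q = 0.0294 in the authors' deposited table). Syt7, a calcium sensor for vesicle fusion, rose in baboACT from 1.42 to 2.69 FPKM and stood at 0.867 and 1.15 FPKM in w1118 and smox (q = 0.161 in the authors' deposited table). unc-13, which primes synaptic vesicles, fell in baboACT from 6.43 to 4.70 FPKM (log2 fold change -0.45) and was not called in smox (3.09 and 3.19 FPKM, q = 0.553 in the authors' deposited table). All 3 are known from nerve terminals. The neuron marker list was at low levels in all groups, with elav between 2.90 and 3.88 FPKM, Syt1 between 1.10 and 1.43, and brp and Rdl below 0.4. None of these 4 markers with a row was called in either experiment, their summed FPKM went from 4.84 to 5.81 in smox and from 5.63 to 4.41 in baboACT, and their part in the values of the vesicle genes was not tested.

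Most genes of kinases, adaptors and the cytoskeleton fell in smox and rose with activated Baboon. Of 11 genes listed 10 were expressed, and 8 fell and 1 rose in smox (median log2 fold change -0.42), while 9 rose and 0 fell in baboACT (median 0.53). CaMKII, described above, was not on this list. Slip1, named for its binding to the Slowpoke potassium channel, lies from 684214 to 690510 and showed the largest rise of all 59 genes with activated Baboon, from 13.7 to 38.5 FPKM (log2 fold change 1.49). It also had the second largest fall in smox, from 25.4 to 12.96 FPKM (-0.97). CG17471, now PIP4K, a lipid kinase, fell from 73.7 to 41.4 FPKM (-0.83) and rose from 51.8 to 93.0 (0.84, with q = 0.00147 in the authors' deposited table). It has the same locus as CG33521, so the split of fragments between them is uncertain.

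Ank, which joins membrane proteins to spectrin, went from 99.7 to 80.4 FPKM in smox and from 77.3 to 113 in baboACT. Crk, an SH2 and SH3 adaptor, went from 84.1 to 58.5 and from 65.4 to 97.0, and Zyx102EF, the zyxin of focal adhesions and muscle attachment, from 40.9 to 30.0 and from 26.5 to 38.3. Dyrk3, a kinase gene, went from 40.7 to 29.2 and from 28.1 to 40.8 FPKM. These 4 genes stood between 26.5 and 77.3 FPKM in MhcGal4, and in baboACT their log2 fold changes lay between 0.53 and 0.57.

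Among the 59 chromosome 4 genes only CaMKI rose in both experiments. This calcium/calmodulin-dependent kinase gene went from 70.0 to 84.3 FPKM in smox (log2 fold change 0.27) and from 48.6 to 64.6 in baboACT (0.41). Asator, a kinase of the tau-tubulin kinase family, fell slightly in smox, from 18.6 to 16.4 FPKM (q = 0.0231 in the authors' deposited table), and stood at 23.5 and 23.7 FPKM in MhcGal4 and baboACT (q = 0.93 in the authors' deposited table). It shares its locus with the row pncr013:4, which was called in neither experiment. RhoGAP102A, whose locus is that of the neural adhesion gene dpr7, was not called in smox and rose in baboACT from 61.8 to 74.6 FPKM (q = 0.00525 in the authors' deposited table).

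All 6 genes listed for RNA silencing, protein turnover and DNA repair were expressed, and 5 fell in smox and 5 rose in baboACT, with medians of -0.50 and 0.53 on the log2 scale. gw, the GW182 protein of microRNA silencing, went from 70.2 to 50.3 FPKM and from 46.9 to 67.8. CG32016, now 4E-T, which binds the cap-binding protein and represses translation, went from 33.1 to 23.2 and from 25.1 to 36.5 FPKM. Rad23, which delivers ubiquitinated proteins to the proteasome, went from 138 to 83.1 and from 113 to 190 FPKM, log2 fold changes of -0.73 and 0.74. CG32850, now Rnf11, a RING finger protein, fell from 12.6 to 6.81 FPKM (-0.88) and rose from 8.59 to 12.5 (0.54). Thd1, now Tdg, a thymine DNA glycosylase, changed less, from 32.7 to 29.1 FPKM (q = 0.0144 in the authors' deposited table) and from 35.9 to 44.9. CG11148, now Gyf, was called in neither experiment (q = 0.0768 in smox and 0.0955 in baboACT in the authors' deposited table).

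Outside these role lists stood 13 genes, of which 6 fell and 1 rose in smox, and 8 rose and 1 fell in baboACT. Shares over all genes analysed were 39.8% lower and 18.4% higher in smox, and 29.1% higher and 14.7% lower in baboACT. The fallen genes outside the lists were thus near the share of all genes in smox. They include CaMKII, a kinase gene that is not on the kinase list, and CG41130, the separate row now matched to Mitf. CG31999 went from 122 to 85.4 FPKM and from 78.0 to 133, and CG31998 from 25.2 to 17.0 and from 19.5 to 29.0. CG32017 fell in smox from 5.53 to 4.29 FPKM (q = 0.000429 in the authors' deposited table) and rose in baboACT from 4.17 to 7.34. CG11077, now Mpv17, a mitochondrial membrane protein, rose in smox from 16.9 to 20.7 FPKM (log2 fold change 0.29, with q = 0.0267 in the authors' deposited table) and stood at 21.3 and 18.5 FPKM in MhcGal4 and baboACT (q = 0.21 in the authors' deposited table). Its neighbor CG11076 was called in neither experiment (20.1 and 18.0 FPKM, then 27.0 and 24.8). CG32021, annotated as a pseudogene in the current reference under the name CR43361, had the largest fall with activated Baboon, from 6.03 to 3.32 FPKM (log2 fold change -0.86, with q = 0.00147 in the authors' deposited table).

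**Figure D2:**
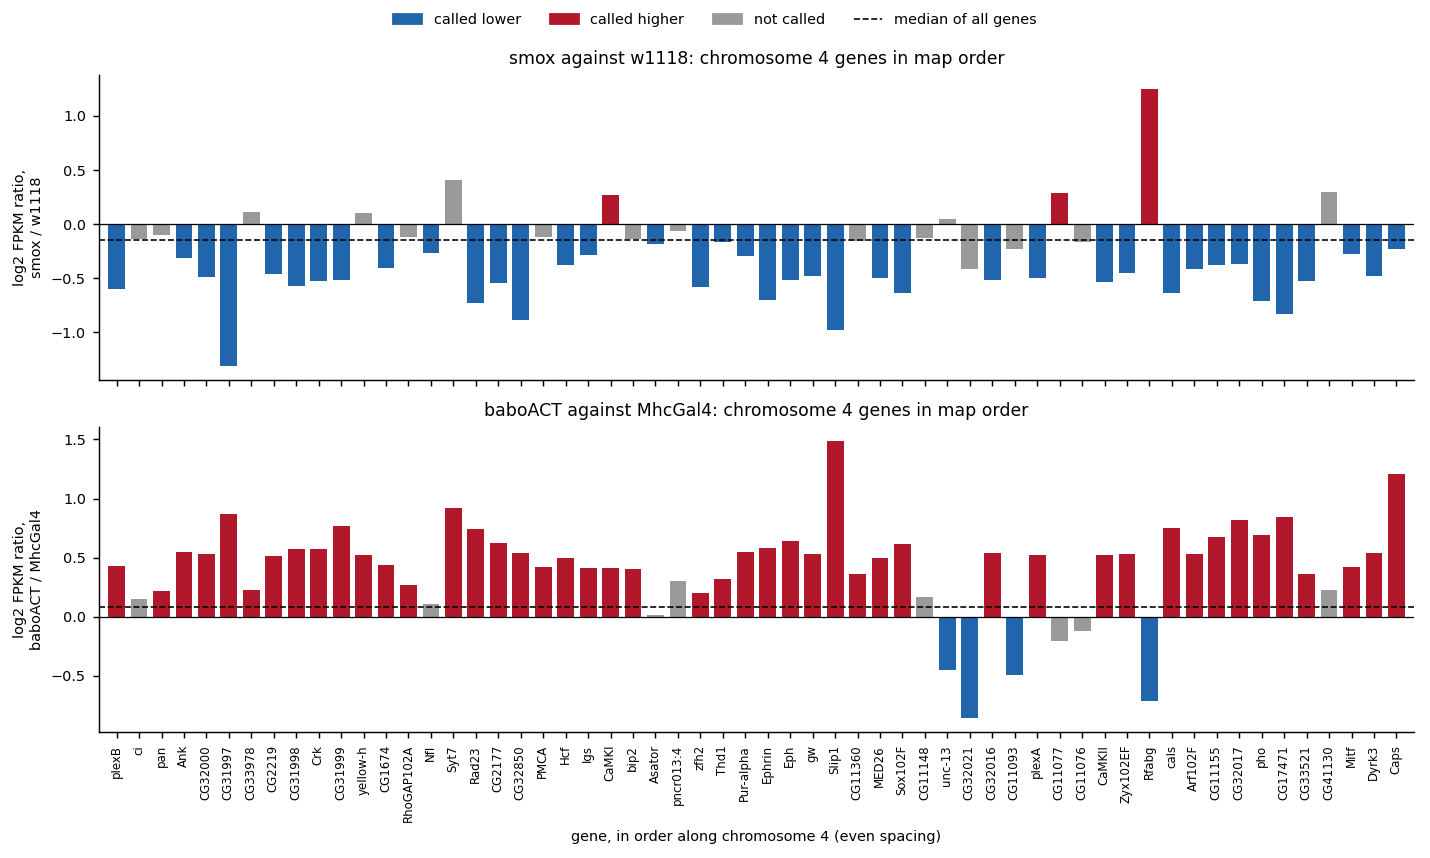
log2 ratio of FPKM for 58 of the 59 genes in their order along chromosome 4, evenly spaced, for smox over w1118 (top) and baboACT over MhcGal4 (bottom). Each bar is 1 gene from 1 deposited value per group, blue called lower, red called higher and gray not called, and the dashed line is the median of all genes analysed (-0.14 and 0.080); bars of the same color run along the whole map, with Rfabg, CaMKI and CG11077 the called rises at the top and unc-13, CG32021, CG11093 and Rfabg the called falls at the bottom.

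The changes did not belong to one end of the chromosome. The 59 genes span 1222054 bases, from plexB, which starts at 53434, to Caps, which ends at 1275487. The first 20 genes had medians of -0.47 in smox and 0.53 in baboACT on the log2 scale, the middle 19 had -0.28 and 0.41, and the last 20 had -0.41 and 0.53. Spearman rho between log2 fold change and map order was -0.00076 in smox and 0.027 in baboACT over 59 genes. With rows that are not members skipped, a run of 13 successive members rose in baboACT, from pan to RhoGAP102A. In smox the longest runs that fell had 7 members each, from zfh2 to Slip1 and from cals to CG33521. Since 79.7% of members rose in baboACT and 67.8% fell in smox, long runs can arise in any order, and their length was not tested. Of the 4 called falls in baboACT, unc-13, CG32021 and CG11093 lie close together, with CG32016 among them, which rose.

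On the other arms the medians were closer to 0. In smox their medians lay between -0.15 (3L) and -0.13 (2R), against -0.40 for the chromosome 4 genes. With activated Baboon the other medians lay between 0.049 (X) and 0.092 (3R), against 0.52. The middle 50% of the chromosome 4 genes reached from -0.53 to -0.15 in smox and from 0.29 to 0.58 in baboACT, and was narrower than that of all genes, with widths of 0.38 and 0.29 against 0.48 and 0.46. The share that fell in smox was between 37.5% (2R) and 41.9% (2L) on the other arms, and the share that rose in baboACT between 25.5% (X) and 31.0% (3L). Among the chromosome 4 genes 30 of 59 (50.8%) had between 130% and 160% of their MhcGal4 level in baboACT, against 10.8% of 7951 genes on other chromosomes. In smox 24 of 59 (40.7%) had between 65% and 80% of their w1118 level, against 18.3% of 7911. These ranges were chosen after the values were seen and hold the chromosome 4 medians, so the shares restate the shift.

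**Figure D3:**
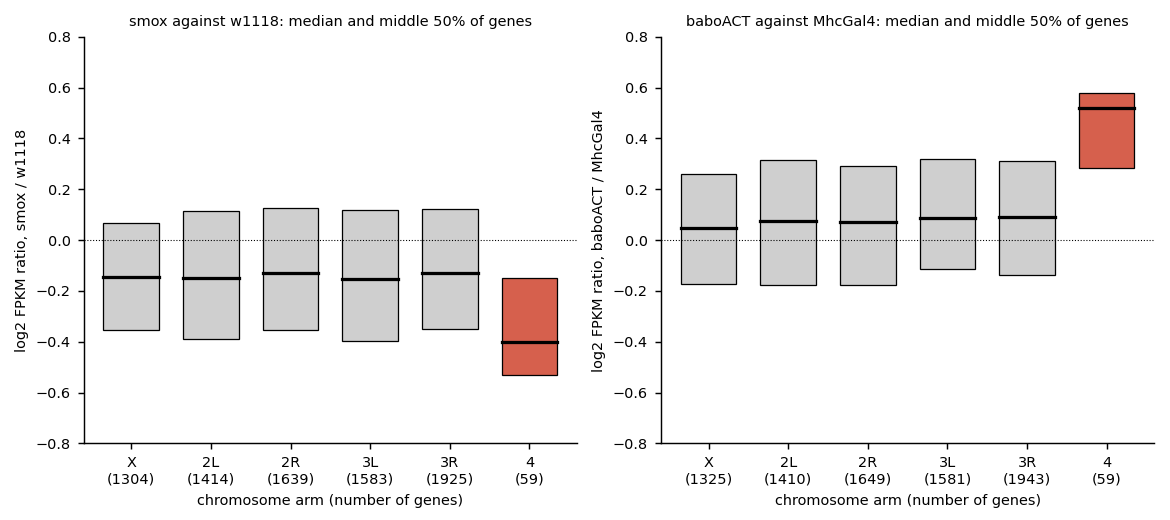
log2 ratio of FPKM by chromosome arm for smox over w1118 (left) and baboACT over MhcGal4 (right), with the number of genes under each arm. Lines are medians over genes and boxes the middle 50% of genes, not an error between libraries; the chromosome 4 box lies lowest on the left (median -0.40) and highest on the right (median 0.52), while the 5 other arms lie near -0.14 and 0.08.

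Level and locus length differ between chromosome 4 genes and others, and both were set beside the changes. Between 10 and 30 FPKM the gap was smaller, with 19 members at a median of -0.27 in smox against -0.15 for other chromosomes, and 17 members at 0.30 in baboACT against 0.10. Between 30 and 100 FPKM, 21 members had a median of -0.46 in smox against -0.13 for 1188 genes on other chromosomes, and in baboACT 25 members had 0.53 against 0.15 for 1256. Above 100 FPKM, 8 members had medians of -0.52 and 0.53, against -0.060 and -0.0042 for other genes. Members between 1 and 10 FPKM were closer to the rest in smox, with a median of -0.23 over 11 genes against -0.16. In baboACT they were not, with 0.52 over 9 genes against 0.041. The fall in smox was larger in genes with a higher w1118 level (Spearman rho -0.35 over 59 genes, where the w1118 level also enters the fold change). Chromosome 4 loci were long, with a median of 9334 bases against 3949 for all genes. Among loci of 8000 to 16000 bases, 27 members had medians of -0.40 and 0.50, against -0.12 and 0.11 for other chromosomes. Over 16000 bases the 12 members had -0.15 and 0.26, against -0.065 and 0.12.

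Most chromosome 4 genes were called in opposite directions in the experiments. Of the 59 genes, 38 (64.4%) fell in smox and rose with activated Baboon, against 19.4% of the 7768 genes analysed in both tables. The share on other arms was between 17.4% (2R) and 21.2% (3L). A further 8 genes were not called in smox and rose in baboACT, among them pan, PMCA, bip2 and Syt7, and 5 were called in neither. Of the 59 genes, 0 fell in both, against 2.94% of the 7768 genes, and 1 (CaMKI) rose in both, against 3.39%. Among these 38 genes, ranked by the smaller of a gene's 2 changes, Slip1, CG31997, CG17471, Rad23 and pho came first. Rfabg, called in the reverse directions as were 5.59% of the 7768 genes, brought the chromosome 4 genes with opposite calls to 39. Across the 59 genes the log2 fold changes of the experiments had a Spearman rho of -0.62 and a Pearson r of -0.55, and without Rfabg, CG31997 and Slip1 these were -0.57 and -0.35. Over 7702 genes on other chromosomes they were -0.36 and -0.23. These are descriptions across genes of 4 pooled values each, and genes are not independent replicates.

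**Figure D4:**
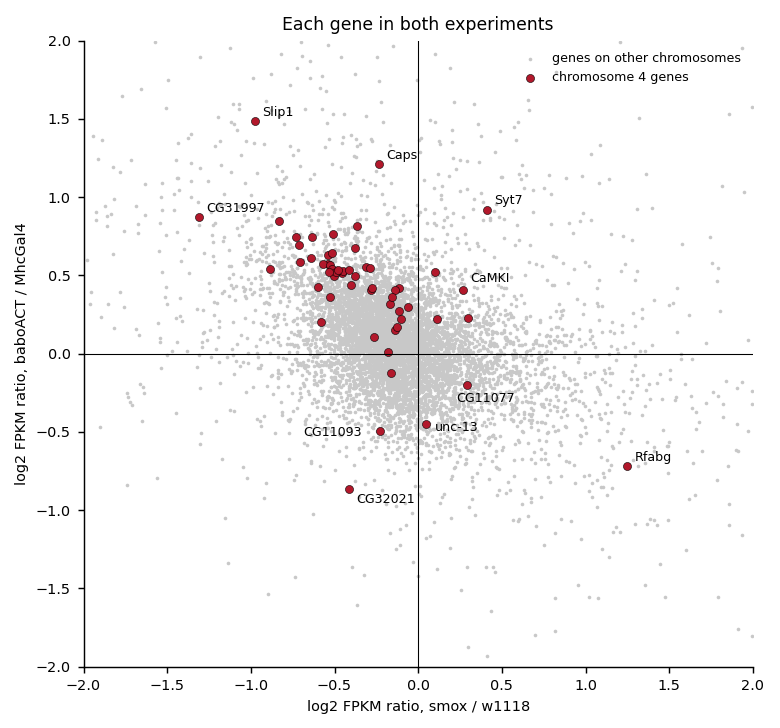
Each point is 1 gene, with the log2 ratio of FPKM in smox over w1118 on the x axis and in baboACT over MhcGal4 on the y axis; red points are the 59 chromosome 4 genes and gray points genes on other chromosomes, of which 314 of 7702 lie beyond 2 log2 units and are not drawn. Most red points (48 of 59) lie in the upper left, lower in smox and higher in baboACT whether called or not, where 45.8% of the other genes lie, and 3 lie at the lower right, Rfabg farthest out.

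Genes whose products act on chromosome 4 chromatin were read separately. Of 15 listed, 8 fell and 0 rose in smox (median log2 fold change -0.18), and 1 rose and 0 fell in baboACT (median 0.079). Over all genes analysed 39.8% fell in smox and 29.1% rose in baboACT. The medians of all genes were -0.14 and 0.080, so both medians of the list lay near them. Pof itself was called in neither experiment, at 4.51 and 4.10 FPKM in w1118 and smox and 4.83 and 4.95 FPKM in MhcGal4 and baboACT (q = 0.656 and 0.922 in the authors' deposited table). egg, the histone methyltransferase that acts on this chromosome, was not called either (q = 0.424 and 0.933 in the authors' deposited table). The gene for HP1a fell in smox from 68.9 to 55.2 FPKM (log2 fold change -0.32) and stood at 64.0 and 72.0 FPKM in MhcGal4 and baboACT (q = 0.0518 in the authors' deposited table). JIL-1, a histone kinase that opposes the spread of heterochromatin, fell in smox from 12.5 to 7.36 FPKM and rose in baboACT from 8.57 to 21.5. Pof and egg were thus not among the called genes, while the HP1a and JIL-1 genes fell in smox, and JIL-1 was the 1 gene of the list that rose with activated Baboon.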

How the data were processed

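Per the labels' protocols, carcass RNA was extracted with TRIzol and sequenced from TruSeq RNA libraries. Cufflinks and Cuffdiff are named, without versions, in the submitters' processing notes. The sources used here name no aligner, annotation or build. Per the file headers, the authors deposited 1 FPKM per gene and group, the p-value and q-value of their test, and its statistic as a score without set bounds. The lowest p was 5e-05. The authors' log2 fold change column holds error text and was not used.

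With Python 3.11.15 and pandas 2.3.3, log2 ratios were computed from deposited FPKM with no pseudocount. Genes analysed had a q from the authors' test, FPKM above 0 in both groups, a mean of at least 1 and a name occurring once (7977 in smox, 8018 in baboACT). Rows of other chromosomes that name several genes are among them, each counted as a single gene. No library values were used (0 columns), so no test was fitted, precision from depth is unknown, and the authors' q-values stand in, as the design foresaw. Of 59 names, 37 matched a current symbol and 22 a synonym. Gene ends on chromosome 4 differed from BDGP6 most often by -20626 bases (10 of 82 genes), so BDGP6 and RefSeq served for names only. Members, roles and lists were chosen with earlier results of these data known. Named genes were those of the role lists, the 10 largest called changes each way, the 5 most abundant, and the 5 largest called in both experiments; CG31998, CG11076, pncr013:4 and CG41130 were named after their values were seen. The values of 1 gene of the role lists are counted but not reported here. Scripts were tested on simulated tables. No promoter or protein sequences were used here, so the planned promoter description was not made.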

Additional observations from a re-analysis of the deposited data

How the results depend on the processing

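The calls are those of the authors' test, and values per library were not available here, so leaving out replicates could not be done. No paired analysis was possible because the tables hold 1 value per group and no replicate numbers. No chromosome 4 row names several genes, so that alternative gave no value. With a minimum of 5 FPKM, 52 genes were left and 1 gene fell in baboACT, against 4, because unc-13, CG32021 and CG11093 miss it in 1 table or both. The other counts of calls stayed within 1.5 times of those reported under a q under 0.01, adjustment over the genes analysed, other minimums, and with the 7 genes left out by name. The smox median of -0.40 was -0.37 with a pseudocount of 1, -0.29 with no minimum (73 genes), -0.43 with a minimum of 5, -0.26 under median-ratio scaling, -0.27 under upper-quartile scaling and -0.35 with the 7 genes. The baboACT median of 0.52 was 0.49 with a pseudocount of 1, 0.44 under median-ratio scaling, 0.33 under upper-quartile scaling and 0.50 with the 7 genes. As alternatives chosen after seeing the data, the medians were -0.39 and 0.52 without Rfabg, CG31997 and Slip1, and -0.42 and 0.53 without the 8 genes whose locus is shared. No called value of the 52 named genes changed sign under the pseudocount or either scaling, but some became small. Under upper-quartile scaling the baboACT changes of zfh2 and pan were 0.013 and 0.028. Under median-ratio scaling the smox changes of Thd1 and Asator were -0.026 and -0.037. Among values not called, 7 changed sign under median-ratio and 8 under upper-quartile scaling. Depth, and so the precision of low FPKM, is unknown.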
